A study of Mus musculus with 8 samples.

Results

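The genes described here handle iron in the cells that line the gut: Tfrc, Slc11a2 and Cybrd1 for uptake, Slc40a1 and Heph for export, Fth1 and Ftl1 for storage, and Hmox1 for release of iron from heme. They were chosen by name for these roles, with no measured value in the rule, and all 8 were listed in both the colon and the ileum count table, out of 40178 genes listed in either table. The libraries came from 4 mice, 2 WTIEC mice with the genotype DDX5(+/+), Vil1Cre(+) and 2 DDX5ΔIEC mice with the genotype DDX5(fl/fl), Vil1Cre(+), all 8 weeks old according to the labels. Each mouse gave 1 colon and 1 ileum library, so there were 8 libraries in 4 groups of 2, written below as WT colon, KO colon, WT ileum and KO ileum. Both genotypes carried the Villin1-driven Cre, which acts in the intestinal epithelium, and no group lacked Cre or received a treatment. DDX5 is an RNA-binding DEAD-box helicase, and the study asked which RNAs of the intestinal epithelial cells (IECs) depend on it in the colon and in the small intestine. The IECs were the fraction released by EDTA, not a sorted population.

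An enterocyte takes up dietary iron through its luminal membrane, where the reductase encoded by Cybrd1 turns ferric into ferrous iron and the transporter encoded by Slc11a2 (DMT1) carries it in. Iron that is not used is held in ferritin, a shell built from the heavy chain (Fth1) and the light chain (Ftl1), or leaves on the blood side through ferroportin (Slc40a1), helped by the ferroxidase hephaestin (Heph). Most dietary iron is absorbed in the duodenum, upstream of both segments measured here. The transferrin receptor (Tfrc) brings in iron from the blood and is abundant in dividing cells, and heme oxygenase 1 (Hmox1) opens the heme ring and frees its iron.

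Several of these RNAs share a regulatory hairpin, the iron-responsive element, which is bound by the iron regulatory proteins made from Aco1 and Ireb2 when iron is scarce. Bound near the start of an RNA it blocks translation, and bound in the 3′ UTR it protects the RNA from decay. The elements are shown because they divide the 8 genes by how iron is known to act on their RNA. The search used the sense strand of GENCODE transcripts on GRCm38 and required an unpaired C, a stem of 5 base pairs with G-U pairs allowed and the loop CAGTGN. Capitals run from the unpaired C to the end of the stem in a window of 29 bases.
Tfrc 3′ UTR site 1, chr16:32631219-32631247, plus strand: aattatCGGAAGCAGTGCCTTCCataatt
Tfrc 3′ UTR site 2, chr16:32631598-32631626, plus strand: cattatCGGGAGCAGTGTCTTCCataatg
Tfrc 3′ UTR site 3, chr16:32631663-32631691, plus strand: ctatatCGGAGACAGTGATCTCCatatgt
Tfrc 3′ UTR site 4, chr16:32631710-32631738, plus strand: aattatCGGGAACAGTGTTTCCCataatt
Slc40a1 5′ UTR, chr1:45925465-45925493, minus strand: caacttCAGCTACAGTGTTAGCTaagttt
Fth1 5′ UTR, chr19:9982732-9982760, plus strand: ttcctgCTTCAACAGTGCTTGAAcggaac
Ftl1 5′ UTR, chr7:45459779-45459807, minus strand: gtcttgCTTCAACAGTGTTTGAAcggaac

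Of the 8 genes, 4 held such a hairpin and 4 (Slc11a2, Cybrd1, Heph and Hmox1) had no match to these letters. A match in either UTR was present in 0.731% of 21901 protein-coding genes, 0.142% in the 5′ UTR and 0.589% in the 3′ UTR. The ferritin elements were nearly the same sequence, differing in 3 of the 29 bases and in 1 of the bases in capitals. The 4 Tfrc elements differed from each other in 4 to 11 of the 29 bases, and from those in the 5′ UTRs in 13 to 20. Some transcripts of Slc11a2 are known to end in an element with a bulge in its stem, a form that these letters do not describe. The deposited counts are per gene, so transcripts with and without an element were not separated.

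On GRCm38 the genes lie at chr16:32608920-32632794 (Tfrc, plus strand), chr15:100387898-100425072 (Slc11a2, minus), chr2:71117923-71142926 (Cybrd1, plus), chr1:45908068-45926523 (Slc40a1, minus), chrX:96455359-96574485 (Heph, plus), chr19:9980598-9985098 (Fth1, plus), chr7:45457944-45459884 (Ftl1, minus) and chr8:75093621-75100589 (Hmox1, plus). The counts cover all annotated exons of each gene, UTRs included. Ftl1 shares 50.9% of its 50-base words with 15 other annotated genes, mostly with the pseudogene Ftl1-ps1. Since the authors counted uniquely mapped reads, its count is uncertain. The share was 1.93% for Cybrd1, 1.59% for Fth1, 0.237% for Slc11a2 and 0 for the other 4 genes. Positions and shares come from a later GENCODE release than the authors used, in which the Fth1 record differs. The share for the counted Fth1 record, with a length of 866 bases, was not computed. Slc11a2 overlaps Gm5475, Heph overlaps Hsf3 and Ftl1 overlaps Gm10252 on the opposite strand, and whether the counting used strand is not given in the sources used here.

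Total counts per library ranged from 16883951 to 20393824 in the colon and from 11571061 to 22984283 in the ileum. Ddx5 itself was at 706 to 771 CPM (counts per 1e+06 counts) in WT colon against 355 to 367 in KO colon, and at 700.3 to 700.5 in WT ileum against 326 to 340 in KO ileum, so every KO library was below every WT library. KO ileum replicate 2 stood apart, with 19.5% of its counts on Gm10800, Gm21738 and Gm10801, which resemble repeats. The other 7 libraries had at most 4.04% there. Called results that rest on it are given with and without it. The summed level of 7 epithelial markers was 10554 to 11951 CPM in the colon and 13468 to 17330 in the ileum. The 8 listed macrophage markers summed to 2.64 to 6.75 CPM, the 7 erythroid markers to 2.95 to 16.1 and the 6 markers of stroma and endothelium to 2.64 to 14.7. Cd79a, Cd163 and Cdh5 were at no more than 3 counts in each library, and the 7 lymphocyte markers summed to 6.68 to 73.1 CPM, most of it Ptprc.

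Levels between genes were compared as CPM per kb of the gene length in the deposited tables. Fth1 stood highest in every group, at 501 to 610 CPM per kb over the 8 libraries, followed by Ftl1 at 275 to 446. Tfrc came next in the colon, at 65.3 to 87.7, above Heph at 23.7 to 27.4. In the ileum Tfrc (48.4 to 65.4) and Heph (40.7 to 58.5) overlapped within both genotypes. Slc40a1 came after Heph in the colon, at 17.6 to 27.3, with an overlap of the pair in KO colon, and fell below Slc11a2 in the ileum, at 2.07 to 6.61 against 7.43 to 10.03. Hmox1 never exceeded 1.31 CPM per kb. Cybrd1 lay at 0.00824 to 0.0256 in the colon, and at 0.429 to 1.02 in the ileum, where it overlapped Hmox1 in the KO group. Storage RNAs therefore stood above the uptake and export RNAs per length in all 4 groups. The 8 genes together took 0.127% to 0.215% of the counts of a library.

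**Figure D1:**
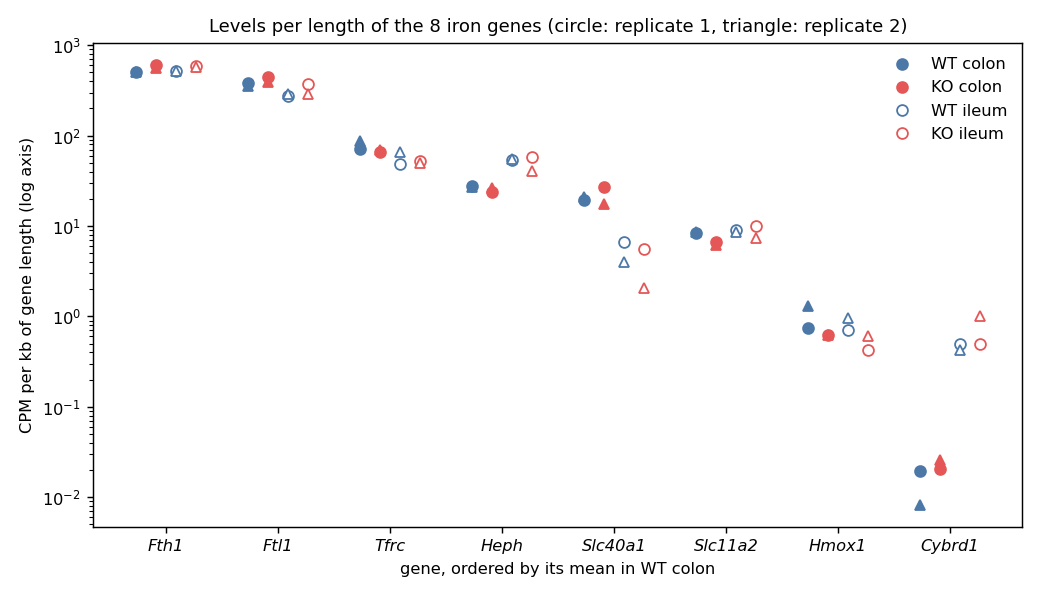
Level per length of each gene in every library, as CPM per kb on a log axis, ordered by the mean in WT colon. Filled symbols are colon and open symbols ileum, blue WT and red KO, circles replicate 1 and triangles replicate 2; Fth1 and Ftl1 lie between 275 and 610 in all libraries, while Slc40a1 drops and Heph and Cybrd1 rise from colon to ileum.

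The largest differences in these genes were between the segments. Comparing ileum with colon in WT mice, 2 of the 8 genes were higher in the ileum (Cybrd1 and Heph) and 1 was lower (Slc40a1) at an adjusted p under 0.05 (edgeR quasi-likelihood test over 16178 genes, Benjamini-Hochberg), where 17.4% of all genes tested were called higher and 16.8% lower. In KO mice the same 3 genes and Slc11a2 were called, 3 higher and 1 lower, with 18.0% of all genes higher and 17.3% lower. The median log2 difference of the 8 genes was -0.15 in WT and -0.14 in KO, beside -0.02 and -0.04 over all genes. Both comparisons used libraries of the same mice. In bulk RNA from a mixed fraction, fewer cells of a type and less RNA per cell cannot be told apart.

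Cybrd1, the luminal ferric reductase, was close to the floor of 3 counts in the colon and low but measurable in the ileum. It had 2 and 1 counts in WT colon and 2 and 3 in KO colon, against 57 and 33 in WT ileum and 28 and 51 in KO ileum. As CPM these are at most 0.137 in the colon, and 2.63, 2.29, 2.62 and 5.46 in the ileum libraries in the same order. Every ileum library was above every colon library. The ratio of ileum to colon summed over the libraries of a group was 34.7 in WT, with a 95% counting interval of 11.5 to 172, and 31.6 in KO, with an interval of 12.997 to 100.09, where the intervals cover counting error only. The fitted log2 difference was 4.97 ± 0.60 (SE, n = 2 per group, adjusted p = 4.26e-04 in edgeR) in WT and 4.93 ± 0.55 (adjusted p = 2.69e-04) in KO. The KO value was 4.34 without KO ileum replicate 2, which has the highest Cybrd1 level.

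Slc40a1, which encodes ferroportin, the known route of iron out of the cell, went the other way. Its levels were 176 and 188 CPM in WT colon and 246 and 158 in KO colon. In the ileum they were 59.5 and 36.1 in WT and 50.1 and 18.6 in KO, so no ileum library reached a colon library. The WT ileum was 3.79-fold lower than the WT colon (log2 difference -1.92 ± 0.42, 95% interval -2.88 to -0.96, n = 2 per group, adjusted p = 0.00832 in edgeR), and this adjusted p rose to 0.0763 when WT ileum replicate 2 was left out. The KO ileum was 5.85-fold lower than the KO colon (log2 difference -2.55 ± 0.44, adjusted p = 0.00251), and without KO ileum replicate 2 the log2 difference was -1.99 (adjusted p = 0.00496). Macrophages also use ferroportin to recycle iron. Their marker list summed to 2.64 to 3.68 CPM in the colon and to 4.09 to 6.75 in the ileum. Without Adgre1, the 1 gene of the list that was called, it was 2.51 to 3.57 and 2.98 to 5.03 and the segments overlapped. Other lists were lower in the ileum in part. The markers of stroma and endothelium summed to 5.74 to 14.7 CPM in the colon and 2.64 to 4.59 in the ileum. Of 5 tested, 4 were called lower in WT ileum but 1 in KO ileum. The erythroid markers summed to 5.52 to 16.1 in the colon and 2.95 to 5.53 in the ileum, and the segments overlapped. Of 6 tested, 4 were called lower and 1 higher (Epb42) in WT, and 3 lower and 1 higher in KO. Beside these marker counts, 16.8% of all genes were called lower and 17.4% higher in WT ileum, and 17.3% and 18.0% in KO ileum. Their part in the Slc40a1 values was not tested.

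Heph, the ferroxidase that works beside ferroportin, was higher in the ileum, unlike Slc40a1. Its levels were 210 and 207 CPM in WT colon and 182 and 199.6 in KO colon, against 408 and 423 in WT ileum and 448 and 312 in KO ileum, with no overlap between the segments. The log2 difference was 0.99 ± 0.17 in both genotypes (n = 2 per group), with an adjusted p of 0.00249 in WT and 0.00254 in KO (edgeR), a 1.99-fold higher level. In KO it was 1.25 without KO ileum replicate 2. The ratio of Heph to Slc40a1 counts within a library, which no scaling between libraries touches, ran from 0.739 to 1.26 in the colon and from 6.86 to 16.7 in the ileum. The RNAs of both export proteins thus differed between the segments in opposite directions in both genotypes.

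Slc11a2, the ferrous iron transporter, differed little between segments in WT mice, at 53.0 and 54.9 CPM in the colon and 57.3 and 53.97 in the ileum (log2 difference 0.04, 95% interval -0.28 to 0.37). In KO mice it was at 42.6 and 39.6 CPM in the colon and 63.7 and 47.2 in the ileum. The KO difference of 0.43 ± 0.15 (n = 2 per group, adjusted p = 0.0477 in edgeR) rested on a narrow margin and lost its call in 6 of 9 alternative analyses. Leaving out KO ileum replicate 1 ended the call, at 0.19, as did leaving out KO colon replicate 1 (0.48) or KO colon replicate 2 (0.38). Leaving out KO ileum replicate 2 kept it, at 0.66.

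Tfrc, the receptor for transferrin-bound iron, was lower in the ileum, but outside the threshold. It was at 436 and 542 CPM in WT colon, 404 and 426 in KO colon, 299 and 404 in WT ileum and 328 and 307 in KO ileum. The segments did not overlap within a genotype. The log2 difference was -0.48 ± 0.17 in WT (n = 2 per group, adjusted p = 0.066 in edgeR) and -0.39 ± 0.17 in KO (adjusted p = 0.121). With the mouse as a replicate block, which pairs the segments of one animal, both passed the threshold, at -0.48 (adjusted p = 0.0178) and -0.39 (adjusted p = 0.0406), and the counts of called genes became 4 of 8 in WT and 5 of 8 in KO. Tfrc is known for its high level in dividing cells. The 10 markers of dividing crypt cells summed to 560 to 803 CPM in the colon and to 1334 to 1775 in the ileum, but Olfm4 carried this gap. Without Olfm4 the sums were 559 to 803 in the colon and 759 to 1011 in the ileum and overlapped. In WT 2 of the 10 markers were called higher in the ileum and 0 lower, beside 17.4% and 16.8% of all genes. The part of dividing cells in the Tfrc values was not tested.

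The storage genes differed less between the segments. Fth1, the heavy chain with ferroxidase activity, was at 439 and 434 CPM in WT colon and 446 and 452 in WT ileum (log2 difference 0.04, 95% interval -0.23 to 0.31), and at 528 and 481 in KO colon and 506 and 501 in KO ileum (-0.00, interval -0.28 to 0.27). Ftl1, the light chain, was at 515 and 473 CPM in WT colon, 597 and 523 in KO colon, 369 and 391 in WT ileum and 501 and 384 in KO ileum. Its log2 difference was -0.38 ± 0.16 in WT (adjusted p = 0.102 in edgeR, n = 2 per group) and -0.34 ± 0.16 in KO (adjusted p = 0.134). It passed the threshold in 1 of 10 alternatives in WT, with the 4 WT libraries only (adjusted p = 0.0135 in edgeR), and in 1 of 9 in KO. With each library left out in turn the KO value ran from -0.55 to -0.14. The ratio of Fth1 to Ftl1 counts within a library was 0.852 to 0.92 in the colon and 1.01 to 1.30 in the ileum, with no overlap over the 4 libraries of each segment. This ratio inherits the uncertainty of the Ftl1 count.

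Hmox1 was the second lowest gene of the group in the colon, with 25 and 52 counts in WT and 20 and 24 in KO. In the ileum it had 27 and 24 counts in WT and 8 and 10 in KO. The log2 differences between segments were -0.34 (95% interval -1.16 to 0.49) in WT and -0.28 (-1.30 to 0.74) in KO. The data do not tell apart differences within these intervals.

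**Figure D2:**
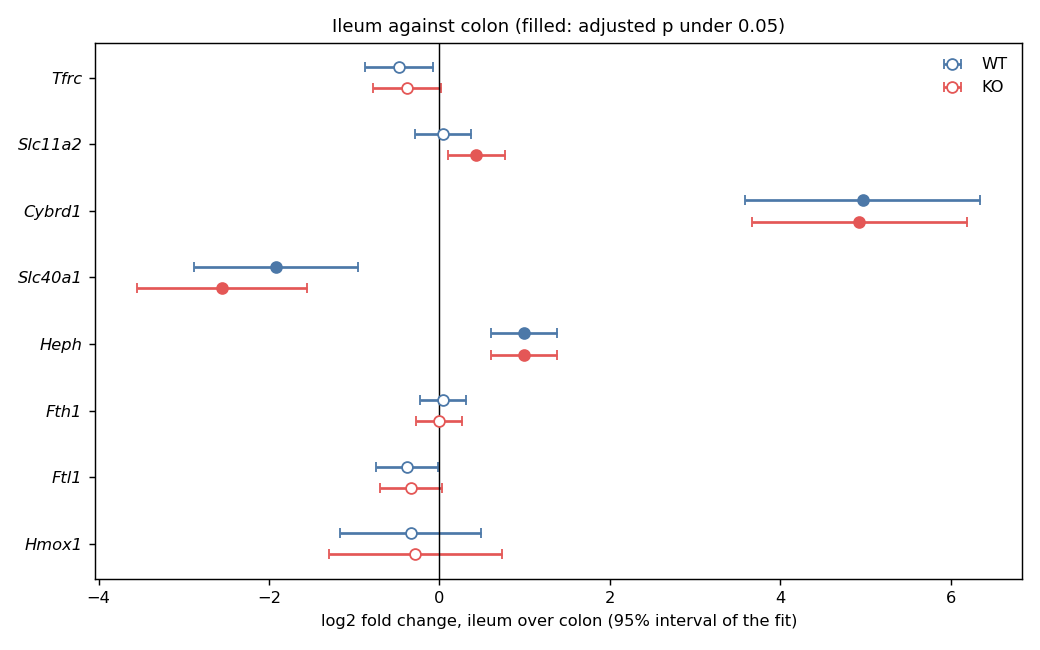
Log2 fold change of ileum over colon for each gene in WT (blue) and KO (red) mice with the 95% interval of the fit, filled where the adjusted p is under 0.05. Cybrd1 lies near 5 and Heph near 1 in both genotypes, Slc40a1 lies at -1.92 and -2.55, and the other genes lie between -0.48 and 0.43.

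With loss of DDX5, the levels of Cybrd1, Slc40a1 and Heph differed by less than they did between the segments. The study called a transcript DDX5-dependent when its unadjusted p was under 0.05 and its log2 fold change reached 0.5 in either direction. The same criterion was applied here to an edgeR fit within each segment, with the replicate number as a block. Fits with a library left out had no block and used 4 group means over the other 7 libraries. In the colon, 0 of the 7 genes tested met the criterion, while 3.04% of 15362 genes did so in the higher direction and 3.67% in the lower. At an adjusted p under 0.05, 0 of the 7 and 0 of all genes (0%) were called by edgeR. Ddx5 itself, at -1.04, had an adjusted p of 0.0866 there, so this threshold did not call the knocked-out gene either. In the ileum Ddx5 was at -1.07 with an adjusted p of 0.0270 in edgeR. Of the 7 in the colon, 1 had an unadjusted p under 0.05 (12.0% of all genes did), and DESeq2 called 0 of the 7 and 120 genes in all. In the ileum, 1 of 8 genes met the criterion, Slc40a1 in the lower direction, beside 3.48% of 14068 genes in that direction and 3.87% in the higher. At an adjusted p under 0.05, 0 of the 8 passed in edgeR, where 0.697% of all genes did. Of the 8, 1 had an unadjusted p under 0.05, where 12.3% of all genes did. DESeq2 called 0 of the 8 and 30 genes in all, but gave no adjusted p for 2 of the 8, Cybrd1 and Hmox1. The median log2 fold change of the tested members was -0.14 in the colon and -0.07 in the ileum, beside -4e-04 and -0.0046 over all genes. With 2 mice against 2, an exact permutation test of a single gene could not go below p = 0.333, so none is given. Groups of 2 libraries without overlap reach no lower p in such a test, and the share of all genes that separate was not counted. Both segments came from the same mice, so separation in both is not independent.

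Slc11a2 was the member with the smallest p in the colon. Both KO colon libraries (42.6 and 39.6 CPM) were below both WT libraries (53.0 and 54.9). The log2 fold change was -0.41 ± 0.10 (SE, n = 2 per group, 95% interval -0.67 to -0.14), a 1.32-fold lower level, with an unadjusted p of 0.0107 and an adjusted p of 0.311 in edgeR. It missed the criterion on size, and over 10 alternatives it stayed between -0.45 and -0.34. Ptprc, the leukocyte marker that made up most of the lymphocyte list, moved in the same direction in the colon, from 22.2 and 19.9 CPM in WT to 5.41 and 10.9 in KO. Of 5 lymphocyte markers tested there, 2 were called lower and 0 higher, beside 3.67% and 3.04% of all genes. Jchain had a log2 fold change of 1.60 without a call. In WT ileum Ptprc was higher than in WT colon, at 46.2 and 67.8 CPM, where Slc11a2 differed little. The part of Ptprc in the result was not tested. In the ileum Slc11a2 was at 57.3 and 53.97 CPM in WT and 63.7 and 47.2 in KO, a log2 fold change of -0.01 (95% interval -0.33 to 0.30). The groups overlapped there.

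Slc40a1 in the ileum was the one call. The call depended on the block, and the size of the difference on the libraries. Between libraries of the same replicate number the KO library was lower, 50.1 against 59.5 CPM for replicate 1 and 18.6 against 36.1 for replicate 2, but the groups overlapped. The log2 fold change with the replicate block was -0.57 ± 0.18 (n = 2 per group, 95% interval -0.96 to -0.18), with an unadjusted p of 0.00783 and an adjusted p of 0.208 in edgeR. Without the block it was -0.47 with a p of 0.325. The labels do not say that WT and KO mice of the same number shared a litter or a harvest. Without KO ileum replicate 2, the library rich in repeat-like counts, it was 0.08, without WT ileum replicate 1 it was -0.07 and without WT ileum replicate 2 it was -0.78 with a p of 0.157, none of them past the criterion. It was -1.37 and still past it without KO ileum replicate 1. In the colon Slc40a1 was at 176 and 188 CPM in WT and 246 and 158 in KO, with a log2 fold change of 0.11 (95% interval -0.38 to 0.59). The KO colon libraries lay on either side of both WT libraries.

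Tfrc was lower in both KO colon libraries (404 and 426 CPM) than in either WT library (436 and 542), with a log2 fold change of -0.24 ± 0.10 (n = 2 per group, adjusted p = 0.446 in edgeR, 95% interval -0.51 to 0.02). In the ileum it was at 299 and 404 CPM in WT and 328 and 307 in KO, and the log2 fold change was -0.13 (95% interval -0.52 to 0.26). The ileum groups overlapped.

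The ferritin chains were at slightly higher levels in KO libraries, without meeting the criterion. Fth1 was at 528 and 481 CPM in KO colon against 439 and 434 in WT colon, and at 506 and 501 in KO ileum against 446 and 452 in WT ileum. In both segments, which came from the same mice, every KO library was above every WT library. The log2 fold changes were 0.20 (95% interval -0.04 to 0.43) in the colon and 0.17 (-0.21 to 0.54) in the ileum. Ftl1 had log2 fold changes of 0.17 (-0.06 to 0.40) and 0.21 (-0.19 to 0.61), with KO libraries above WT in the colon and overlapping groups in the ileum. These intervals leave out a fall of more than 0.21 in either chain and in either segment.

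Heph changed by -0.14 in the colon (95% interval -0.36 to 0.08) and by -0.15 in the ileum (-0.56 to 0.26), neither past the criterion. Cybrd1 was not tested in the colon, where its counts did not pass the filter, and had a log2 fold change of 0.63 in the ileum (95% interval -0.15 to 1.42, unadjusted p = 0.104 in edgeR, n = 2 per group). That value came from KO ileum replicate 2 at 5.46 CPM, since the other 3 ileum libraries lay between 2.29 and 2.63, and it was 0.10 without that library. It was 1.13 and met the criterion without KO ileum replicate 1. Hmox1 was at 1.31 and 2.29 CPM in WT colon and 1.10 and 1.09 in KO colon, and at 1.25 and 1.67 in WT ileum and 0.75 and 1.07 in KO ileum. Every KO library was below every WT library of the same segment, with both segments from the same mice. The log2 fold changes of Hmox1 were -0.70 (95% interval -1.62 to 0.22) and -0.68 (-1.67 to 0.32), neither past the criterion. Without WT colon replicate 1 the colon value was -1.06 and met it, and without WT colon replicate 2 it was -0.26. Hmox1 is abundant in macrophages that clear red cells, and the macrophage marker list summed to 3.30 to 3.68 CPM in WT colon and 2.64 to 2.81 in KO colon, but to 4.09 to 5.45 in WT ileum and 5.62 to 6.75 in KO ileum. Its part in the Hmox1 values was not tested.

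**Figure D3:**
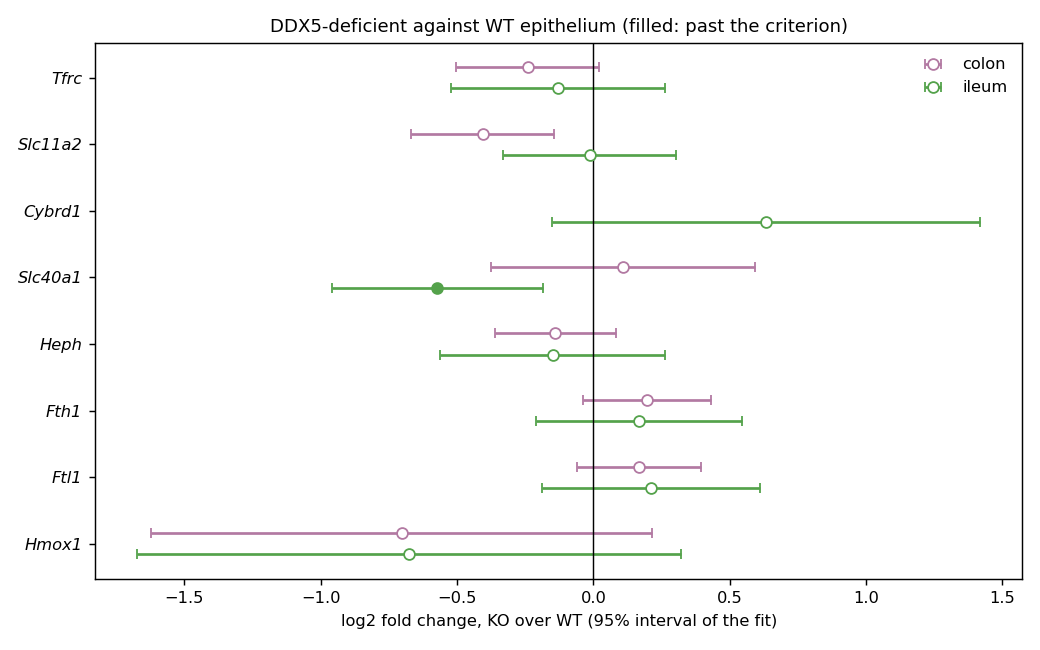
Log2 fold change of KO over WT for each gene in the colon (purple) and the ileum (green) with the 95% interval of the fit, filled where the gene met the criterion. Slc40a1 in the ileum, at -0.57, is the filled point, Cybrd1 has no colon value, and the Hmox1 intervals are the widest.

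**Figure D4:**
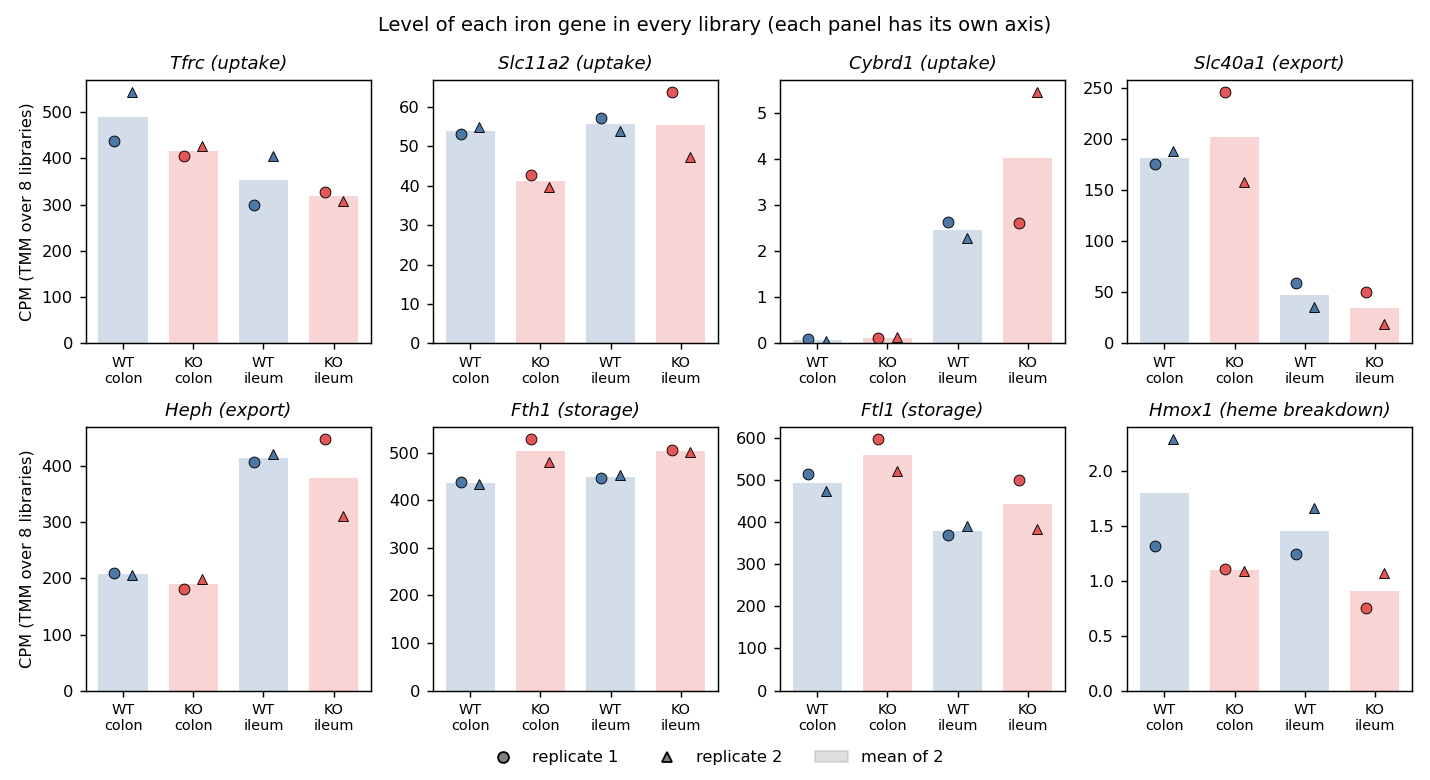
CPM of each gene in the 4 groups, each panel with its own axis from 0, with bars for the mean of 2 libraries, circles for replicate 1 and triangles for replicate 2. The step from colon to ileum in Cybrd1, Slc40a1 and Heph is larger than the distance between any WT and KO group, and KO ileum replicate 2 is the highest library for Cybrd1 and the lowest for Slc40a1.

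Whether the genotype difference itself differed between segments was tested as an interaction in the fit of all 8 libraries. At an adjusted p under 0.05 in edgeR, 0 of the 8 genes passed, where 0.0124% of 16178 genes did. None had an unadjusted p under 0.05, where 755 of the 16178 genes did. DESeq2 called 0 of the 8 and 16 genes in all. The interaction values ran from -0.63 for Slc40a1 (95% interval -1.96 to 0.71) to 0.39 for Slc11a2 (-0.08 to 0.86, unadjusted p = 0.0902, n = 2 per group). Intervals of this width allow differences between the segments that are as large as the genotype differences themselves.

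Among the other genes of iron handling, as among all genes, more were called between segments than between genotypes. Calls between segments use the adjusted p alone and calls between genotypes the study's criterion, so their counts are not directly comparable. A list of 62 further genes covered iron sensing, iron chaperones, other transporters, the hepcidin axis, heme and iron-sulfur clusters. In the colon genotype comparison 0 of 52 tested rose and 1 fell, and in the ileum 1 of 50 rose and 0 fell, none of them at an adjusted p under 0.05. Over all genes the shares were 3.04% higher and 3.67% lower in the colon and 3.87% and 3.48% in the ileum. The medians were -0.05 and 0.05. Without KO ileum replicate 2, in a fit of the other 7 libraries, the ileum counts were 5 of 54 higher and 2 lower, beside 4.76% and 4.96% of all genes. Between ileum and colon in WT mice, 12 of 53 were higher and 13 lower (median -0.15), beside the 17.4% and 16.8% of all genes given above, and in KO mice 12 were higher and 12 lower (median -0.05), or 15 and 12 of 54 without KO ileum replicate 2, beside 16.3% and 13.8% of all genes in that fit. The interaction called 0 of 53.

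Among the iron sensors, 3 of 10 were higher and 2 lower in WT ileum, beside 17.4% and 16.8% of all genes, as for the lists that follow. Aco1, one of the proteins that bind the hairpins printed above, was at 102 and 102 CPM in WT colon and 165 and 165 in WT ileum, and passed. Egln3, a prolyl hydroxylase that needs iron and oxygen, rose from 34.8 and 33.9 to 206 and 267 CPM (log2 difference 2.78 ± 0.35, adjusted p = 5.37e-04). None of the 10 met the genotype criterion in either segment, which is 0 of 10 tested in each. Over all genes 3.04% rose and 3.67% fell in the colon, and 3.87% and 3.48% in the ileum.

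Of the other cellular iron transporters, 6 of 8 tested were lower in WT ileum and 1 was higher, beside 16.8% and 17.4% of all genes. Steap4, a metalloreductase of the plasma membrane, fell from 10.8 and 5.28 to 0.369 and 0.0694 CPM (log2 difference -4.99 ± 0.64, adjusted p = 5.63e-04). It was also the 1 iron gene called in the colon genotype comparison, with 4.25 and 2.14 CPM in KO (log2 fold change -1.33 ± 0.20, n = 2 per group, unadjusted p = 0.00117 and adjusted p = 0.223 in edgeR). Trf, which encodes transferrin, fell from 1.52 and 1.32 to 0.138 and 0.0694 CPM (-3.60). Steap4 and Trf had few counts in WT ileum, 8 and 1 for Steap4 and 3 and 1 for Trf, against a floor of 3. Slc25a37, the mitochondrial iron importer, was higher in WT ileum, at 69.2 and 75.8 against 22.3 and 23.9 CPM (1.65 ± 0.12), 1 of 2 genes called among 10 for mitochondrial iron and iron-sulfur clusters.

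In heme transport and breakdown, 3 of 8 were higher and 2 lower in WT ileum, beside 17.4% and 16.8% of all genes. Flvcr2, described as a heme and choline transporter, had 0 counts in both WT colon libraries and 20.1 and 19.4 CPM in WT ileum, which is at least 275-fold higher against a floor of 3 counts over the group. Abcg2, an exporter of porphyrins among other substrates, rose from 79.9 and 79.0 to 257 and 244 CPM (1.65 ± 0.18). Slc46a1, which carries folate and has been described as a heme carrier, met the genotype criterion in the ileum, with 4.94 and 4.44 CPM in WT and 10.3 and 5.25 in KO (log2 fold change 0.71, unadjusted p = 0.0199 and adjusted p = 0.301 in edgeR, n = 2 per group). Without KO ileum replicate 2 it was 1.15 with an unadjusted p of 0.0749 and no longer met it, in that edgeR fit of 7 libraries. Of 9 genes of heme synthesis, 0 were higher and 2 lower in WT ileum, and 0 met a genotype criterion. The chaperones and ferritin handling genes gave 2 higher of 4 tested and the hepcidin axis 1 higher and 1 lower of 4 tested, in both cases with 0 genotype calls. The shares of all genes given above, between segments and by genotype, apply to these short lists too. Hamp, the gene of hepcidin itself, was at no more than 0.0937 CPM in any library.

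Genes that respond to low oxygen and to oxidative stress share regulators with Hmox1 and Slc40a1 and were listed for that reason. Between the segments in WT mice, 8 of 20 were higher in the ileum and 4 lower (median 0.25), beside 17.4% and 16.8% of all genes. The glycolytic regulators Pfkfb3 and Pfkfb4 rose from 5.72 and 4.67 to 26.7 and 42.5 CPM (2.73) and from 31.3 and 30.6 to 130 and 148 CPM (2.17). The NRF2 target Me1 rose from 12.9 and 13.6 to 179 and 278 CPM (4.10). Srxn1, a target of the same factor, rose from 79.0 and 79.2 to 331 and 326 CPM (2.05). Hmox1, also a target of NRF2, had a log2 difference of -0.34. The oxidative stress list went both ways, with 5 of 10 called higher and 2 lower, Gclc (-0.49) and Nfe2l2 (-0.54). Nqo1 (-0.38) and Slc7a11 (-0.78) were lower without a call. With loss of DDX5 in the colon, 1 of 20 rose and 3 fell by the criterion, beside 3.04% and 3.67% of all genes. Bnip3 rose (0.88) and Pfkfb3 (-0.97), Slc7a11 (-1.15) and Me1 (-1.24) fell. In the ileum Ankrd37 rose (0.57) and Nqo1 fell. Nqo1, a quinone reductase driven by NRF2, was at 24.8 and 23.7 CPM in WT ileum and 15.0 and 12.6 in KO ileum, with no overlap (log2 fold change -0.81 ± 0.16, n = 2 per group, unadjusted p = 3.85e-04 and adjusted p = 0.0528 in edgeR). The Nqo1 value was -0.68 without KO ileum replicate 2 and still met the criterion, and 2 of 20 were then higher and 1 lower. None of the 20 passed an adjusted p under 0.05 in a genotype comparison, and 0 passed in the interaction.

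**Figure D5:**
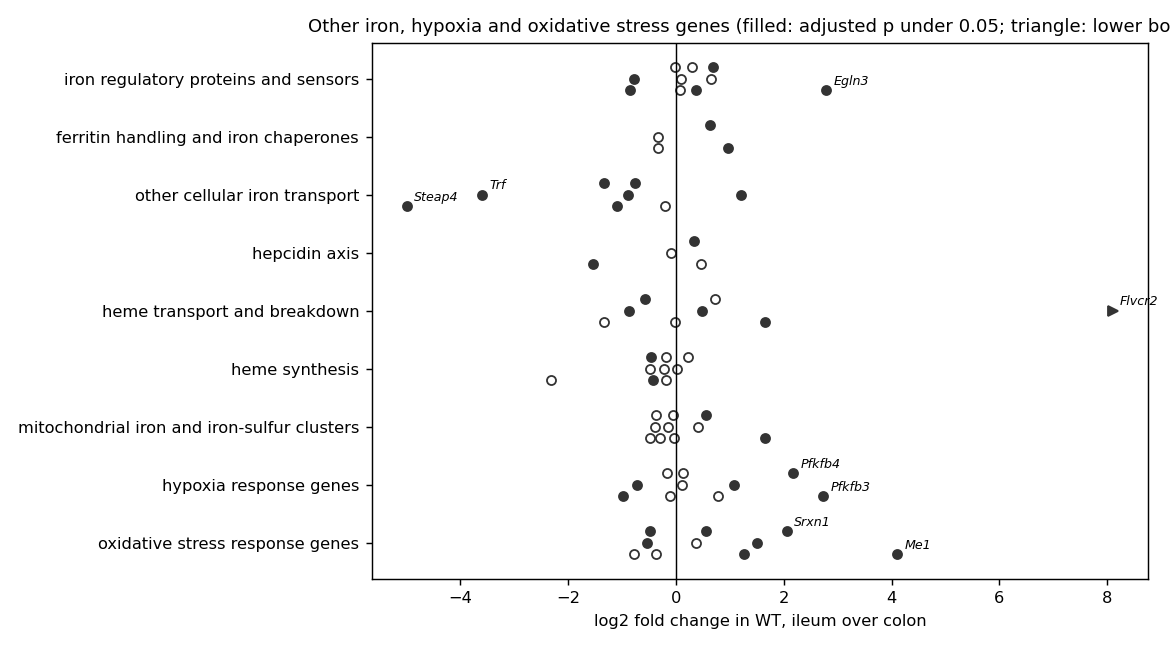
Log2 fold change of ileum over colon in WT mice for the other iron, hypoxia and oxidative stress genes, 1 row per list, filled where the adjusted p is under 0.05. Flvcr2 is drawn as a triangle at its lower bound, since it had 0 counts in WT colon; Steap4 at -4.99 and Me1 at 4.10 are the next farthest from 0.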

How the data were processed

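RNA was measured in EDTA-released intestinal epithelial cells as 8 ribosome-depleted, paired-end libraries. According to the study's methods and processing notes, the authors aligned reads to mm10 with STAR 2.6.1a and counted uniquely mapped reads over GENCODE exons with featureCounts, and the deposited values used here are these raw counts per gene and library. The deposited tables also hold normalized values and the authors' own DESeq2 fold changes and p-values, which were not used. Gene lengths were taken from the deposited tables, and a gene listed in one table only was given 0 counts in the other.

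From the counts, CPM were computed with TMM factors over all 8 libraries (edgeR 4.0.16, R 4.3.3). Genes were kept by filterByExpr with a minimum count of 10 and entered a quasi-likelihood test in edgeR, adjusted by Benjamini-Hochberg over all genes tested. Genotype was fitted within each segment with the replicate number as a block, since the study describes pairs of cohoused littermates and used harvest as a covariate, though the labels do not say which mice shared one. Segment and interaction were fitted on 4 group means over 8 libraries. Column headings of the study's supplementary data show that same-numbered colon and ileum libraries of a genotype came from the same mouse. Deviations from group means of same-numbered libraries correlated at 0 across genes between genotypes in the colon, 0.125 in the ileum, and 0.14 (WT) and 0.142 (KO) between segments of a mouse.

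The members and gene lists were chosen with earlier results of these data known. Named were all 8 members, list genes past the genotype criterion and the 10 list genes with the largest difference between segments in WT among those with an adjusted p under 0.05. Aco1, Hamp, Gclc and Nfe2l2 were added after their values were seen. Iron-responsive elements, gene positions and shared words came from a later GENCODE release than the authors used. Scripts were tested on simulated counts. Precision is limited by 2 mice per group, and intervals from counts cover counting error only. Alternatives were DESeq2 1.42.0, RLE scaling, no filter, other blocks, removal of repeat-like genes and each library left out. Leaving KO ileum replicate 2 out of the list counts, and Olfm4 or Adgre1 out of marker sums, were alternatives chosen after seeing the data.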

Additional observations from a re-analysis of the deposited data

How the results depend on the processing

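The 328 recomputed values were values of single genes and counts of called members. Of them, 290 kept their direction and side of the threshold or, for counts, stayed close to the main count. A change of the WT count from 3 to 4 is among those kept. Of the rest, 12 newly passed the threshold or were higher counts, 11 no longer passed or were lower counts, and 15 changed sign. In the colon the count of members past the genotype criterion was 0 to 1 with each library left out in turn (Hmox1, without WT replicate 1) and 0 otherwise. In the ileum it was 0 without the replicate block, 0 in one fit of 8 libraries, 2 without the filter and 0 to 2 with each library left out. Between segments in WT, leaving out WT ileum replicate 2 gave -1.61 for Slc40a1 and -0.71 for Tfrc and changed which of them was called. In WT the count between segments was 5 with the 4 WT libraries only, where Tfrc and Ftl1 also passed. In KO it was 3 to 4 with each library left out, and in the interaction 0 throughout. With the mouse as replicate block the counts between segments were 4 in WT and 5 in KO, through Tfrc, and the block changed no other call. Adjusted p for Slc40a1 in the ileum genotype comparison ran from 0.0499 to 1.00 over its alternatives, and for Slc11a2 between segments in KO from 0.00456 to 0.264.

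Signs changed only in values near 0 or in those that 1 library decides, and the cause was not tested. Without the filter, Slc11a2 between segments in WT was -0.0016 and Fth1 -0.0039. Fth1 between segments in KO was 0.0148 with DESeq2, 0.0292 with RLE scaling and 0.0044 without repeat-like genes. With each library left out in turn, the genotype values ran from -0.2011 to 0.4346 for Slc40a1 in the colon, and in the ileum from -0.3526 to 0.0859 for Tfrc, -0.2461 to 0.2121 for Slc11a2, -1.3738 to 0.0799 for Slc40a1 and -0.4238 to 0.1267 for Heph. Between segments they ran in WT from -0.0064 to 0.0835 for Slc11a2 and from -0.6747 to 0.1263 for Hmox1, and in KO from -0.0718 to 0.0581 for Fth1. A lone library left in a group was assumed to vary like the other groups. Depth limits Cybrd1 in the colon and Hmox1 throughout.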

Other observations

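For each member, the genes whose log2 CPM followed it most closely over the 8 libraries were listed among 13100 protein-coding genes, as a description. The 8 points share the split between segments, and the part of that split in the correlations was not tested. Slc40a1 was followed most closely by Trp53i11 (Pearson's r = 0.9939), Tead4 (0.9889) and Ssbp1 (0.9887). Heph was followed by Tmsb4x (0.9958), Lysmd3 (0.9933) and Optn (0.9918), and Cybrd1 by Ticam1 (0.9945), Rnf157 (0.9943) and AI606181 (0.9924). Ftl1 was followed by Cnpy2 (0.9857), Slc22a23 (0.9832) and Map2k1 (0.9784), and Fth1 by Heatr3 (0.9509), Dut (0.9503) and Mettl8 (0.9444), so the ferritin chains shared none of their 3 nearest genes. Tfrc was followed by Zfyve27 (0.9636), Pkmyt1 (0.9634) and Alg1 (0.9634), of which Pkmyt1 encodes a kinase of the cell cycle. Slc11a2 was followed by Cd6 (0.9697), Scfd1 (0.9577) and Il21r (0.9541), of which Cd6 and Il21r are known from lymphocytes. Hmox1 was followed by Ints6 (0.9644), Dpm1 (0.9419) and Vps45 (0.9336).

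Part of the colonocyte marker list differed between the genotypes in the colon. There 3 of its 5 genes rose by the criterion (Car4, Slc26a3 and Aqp8), beside 3.04% of all genes. At an adjusted p under 0.05 in edgeR, 0 of them passed. Car1 and Saa1 had log2 fold changes of 0.0065 and 0.014. Car4 does not mark the colon here, being higher in WT ileum (472 and 542 CPM) than in WT colon (245 and 237). The list summed to 3431 and 3671 CPM in WT colon and 4194 and 4645 in KO colon. In the ileum the sums overlapped, at 724 and 706 CPM in WT and 735 and 566 in KO. There 2 of 4 tested fell (Car1 and Saa1), beside 3.48% of all genes, and neither met the criterion without KO ileum replicate 2, at -1.63 for Car1 and 0.72 for Saa1. The part of the colon difference in the values of the iron genes was not tested.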
